A study of Mus musculus with 8 samples.

Results

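The genes described here drive a cell from G1 into S phase and copy its DNA. They are 43 named genes, chosen by symbol in the platform annotation, out of 20289 genes on the array, and all 43 had a probe. They fall into 10 role groups: D-type cyclins and their kinases, E-type cyclins and Cdk2, CDK inhibitors and pocket proteins, E2F factors, origin licensing, helicase activation, the polymerases with their clamp and single-strand binding protein, Okazaki fragment maturation, nucleotide supply, and maintenance of DNA methylation. Where a gene had more than 1 probe, as 28 of the 43 did, the probe with the highest mean level stood for it.

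RNA came from primary hepatocytes of male C57Bl/6 mice, with 4 arrays of mice on normal chow (labelled 1, 2, 3 and 5) and 4 of mice on a high fat diet (HFD, labelled 8, 10, 11 and 12). The sources used here do not give the animals' age, the length of the diets, or whether an array stands for a single mouse. The design text calls the arrays biological replicates. Both groups shared the culture: M199 medium with 10% serum, antibiotics, 100 nM insulin, 400 nM dexamethasone and 1.5 nM epidermal growth factor (EGF), a medium change after 4 h that included 10 nM insulin, and harvest 24 h after the change. The levels therefore describe plated cells exposed to EGF and insulin, not fresh liver. Values are the deposited log2 levels. Levels near the all-probe median of 7.51 are close to background, and differences there understate the change in RNA. Levels of different probes are not on a common scale, so each gene is compared only with itself.

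Hepatocytes of the adult liver rest outside the cell cycle and can re-enter it after injury or when plated with growth factors. D-type cyclins, made in response to growth factor signals, bind Cdk4 or Cdk6, and together with cyclin E and Cdk2 they phosphorylate the retinoblastoma family of pocket proteins. This frees E2F factors, which switch on genes for DNA synthesis. The origin recognition complex, Cdc6 and Cdt1 load the ring of 6 Mcm2 to Mcm7 subunits onto DNA. Cdc45 and the GINS complex then activate the ring as the replicative helicase, and polymerases copy both strands from deoxynucleotides supplied by ribonucleotide reductase and thymidylate synthase.

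Many of these genes share a binding sequence of E2F in their promoters. RefSeq promoter windows of build GRCm38.p6, each from 250 bases before to 50 bases after a start site, were found for 35 of the 43 genes. The words TTTCCCGC, TTTGGCGC, TTTCGCGC and TTTGCCGC, searched on both strands and allowed to overlap one another, occurred in 15 of the 35 genes (42.9%), against 704 of 27025 genes with a window (2.6%). The following 30-base stretches, read 5′ to 3′ along the strand of the gene with the E2F word in capitals, show the word in 6 of these genes whose values are described below. They were picked after the values were seen.
Cdk2, chr10:128705173-128705202, minus strand: aaccaggaactGCGGGAAAgttgtgcagct
Rbl1, chr2:157204534-157204563, minus strand: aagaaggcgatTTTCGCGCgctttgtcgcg
E2f3, chr13:29986056-29986085, minus strand: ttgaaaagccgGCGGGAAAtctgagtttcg
Mcm6, chr1:128359734-128359763, minus strand: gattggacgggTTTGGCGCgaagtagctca
Mcm7, chr5:138171849-138171878, minus strand: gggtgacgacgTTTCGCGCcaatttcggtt
Uhrf1, chr17:56304117-56304146, plus strand: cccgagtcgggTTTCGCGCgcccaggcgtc
Counted from the start site, the first base of the word was at position -140 in Cdk2, -185 in Uhrf1, -18 in Rbl1, -11 in E2f3, -47 in Mcm6 and 17 in Mcm7. The share with a word was much the same whether or not a gene passed the test without the third chow array: 5 of 11 genes that passed (45.5%) and 10 of 24 that did not (41.7%). The median HFD minus chow difference without that array was 0.20 over the 15 genes with a word and 0.18 over the 20 without. A match is a run of letters, not a measured binding site.

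The third chow array stood apart from the rest. Its correlation with the other arrays over all probes was 0.946 to 0.952, while the other 7 correlated with each other at 0.989 to 0.997. The comparison of the diets is therefore given with and without it. Of the 15 hepatocyte markers with a probe, Apoa1, Apoa2, Ttr, Cyp2e1 and Hnf4a read far above background, but the probes of Fgb, Tat, G6pc and Pck1 read near it and that of Alb read only 7.98 to 8.75. Their mean level was 10.92 to 11.04 on chow arrays and at most 11.16 on HFD arrays, and Cps1 alone rose with all arrays, by 0.51 (adjusted p = 0.0105). Ahsg had the largest difference of this list, 1.51 (adjusted p = 0.0929), and without chow 3 it passed at 1.07 (adjusted p = 0.00107). Several markers of other liver cells fell after HFD. For the counts that follow, the background with all arrays was 2.57% of all genes called lower and 1.47% called higher. Without chow 3 it was 4.34% lower and 4.84% higher. Of 21 macrophage markers 8 fell and 0 rose, with a mean level of 8.53 to 8.63 on chow arrays and 7.88 to 8.09 on HFD arrays; without chow 3, 12 fell. Of 20 sinusoidal endothelial markers 5 fell and 0 rose (8.00 to 8.15 against 7.76 to 7.82), but without chow 3, 12 fell and 1 rose. Of 18 stellate cell markers 2 fell in both fits (7.86 to 7.96 against 7.79 to 7.85). The largest fall of each list with all arrays was that of Fcer1g at -1.84 (adjusted p = 0.000283), Fcgr2b at -1.37 (adjusted p = 0.000593) and Sparc at -0.89 (adjusted p = 0.00201). Lymphocyte markers (10 genes, 7.44 to 7.49 against 7.44 to 7.46) stayed near background on every array, neutrophil markers read 7.56 to 7.63 against 7.44 to 7.51 (1 of 10 fell), and bile duct markers 8.33 to 8.45 against 8.45 to 8.48 (2 of 8 rose). Red cell precursor markers read 7.65 to 7.86 against 7.65 to 7.67. The part of these shifts in the results below was not tested. In whole-culture RNA, fewer cells of a type and less RNA per cell cannot be told apart.

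Most G1/S and replication genes read slightly higher on the HFD arrays, with 2 cyclins and thymidylate synthase past the test and only E2f3 past it downward. With all 8 arrays, Ccnd2, Ccne1 and Tyms rose, E2f3 fell, and the other 39 did not pass an adjusted p of 0.05 (limma, 4 against 4 arrays). The 4 calls are 9.3% of the 43 genes, against a background of 4.04% of all genes called, 1.47% higher and 2.57% lower. As 33 of the 43 lie above the upper quartile level of 7.99, a nearer background is the 9.6% called among genes above that level. The bases differ, as the 9.3% also counts the dimmer of the 43 genes. When only genes above that level were tested, 4 of the 33 passed (12.1%, with Ccnd1 in place of Ccne1), against 10.0% of all genes tested. Of the 43 genes, 12 had an unadjusted p under 0.05 in the fit of all genes. So did 2852 of all 20289 genes and 2052 of the 7153 genes above the upper quartile level. The median difference of the 43 genes was 0.11 and 33 of them (76.7%) had a positive difference, against 46.6% of all genes. When the third chow array was left out, 11 rose and 1 fell, or 27.9% of the 43. The background was 9.17% called, 4.84% higher and 4.34% lower, and 21.6% among genes above the upper quartile level. The 27.9% also counts genes below that level, such as Tk1 and Dut. The 11 include the 3 that rose with all arrays and add Cdk2, Rbl1, Mcm2, Mcm7, Fen1, Tk1, Dut and Uhrf1. The median difference was then 0.20, and 38 genes (88.4%) were positive against 52.8% of all genes.

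**Figure D1:**
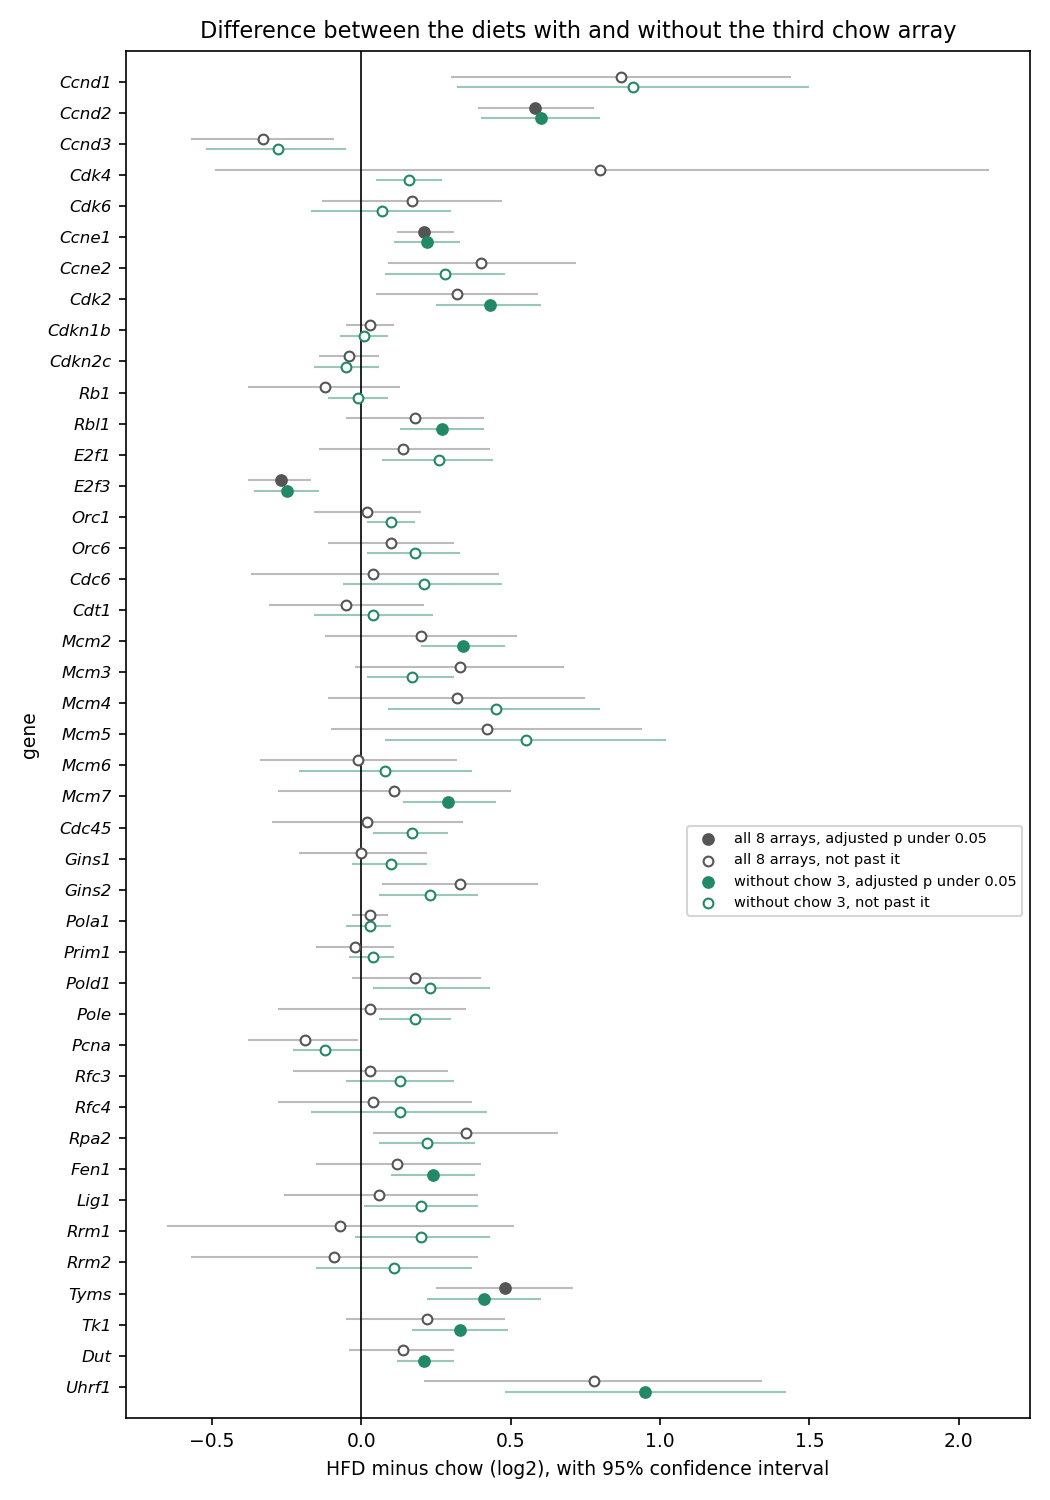
Difference between HFD and chow (log2, horizontal axis) for each of the 43 genes (vertical axis), with 95% confidence intervals; grey is the fit of all 8 arrays and green the fit without the third chow array, filled where the adjusted p is under 0.05. Filled grey points are Ccnd2, Ccne1, Tyms and E2f3, and filled green points number 12.

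The fifth chow array also matters for the size of these differences. It was the lowest of the 8 arrays in 25 of the 43 genes (58.1%), against 13.2% of all genes and 16.7% of genes above the upper quartile level of 7.99. Its median deviation from a gene's median was -0.29 over the 43 genes and 0.00 over all genes. The gap to the mean of chow 1 and chow 2 was largest in Ccnd1 (-1.12, or 2.17-fold lower), Mcm5 (-0.84), Uhrf1 (-0.83) and Mcm4 (-0.65). The third chow array was the highest of the 8 in 23 of the 43 genes (53.5%; 35.7% of all genes) and the lowest in 8 (18.6%; 13.7% of all genes). Without chow 5 the median difference was 0.04 over the 43 genes, of which 25 were positive, and -0.006 over all genes. Without both chow 3 and chow 5, a comparison chosen after seeing the data, the median of the 43 was 0.13 and 34 were positive. In that fit 9 of the 43 rose and 1 fell (23.3%), against 9.64% of all genes called. The share among genes above the upper quartile level, the nearer background, was not counted for that fit.

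**Figure D2:**
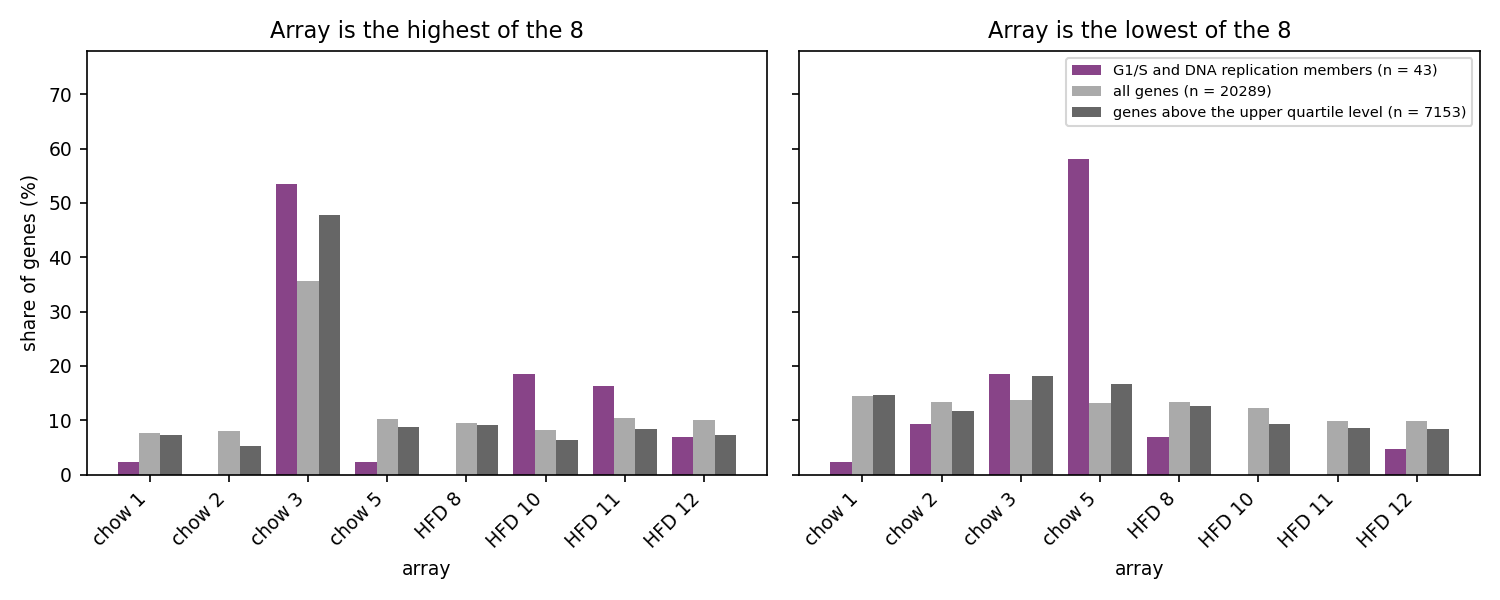
Share of genes (%, vertical axis) in which each array (horizontal axis) gave the highest level of the 8 (left) or the lowest (right), for the 43 G1/S and replication genes, all genes, and genes above the upper quartile level. The fifth chow array was lowest in 58.1% of the 43 genes and the third chow array was highest in 53.5%.

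Chow arrays varied more among themselves than HFD arrays in these genes. The median SD of the 43 genes was 0.25 over the 4 chow arrays, 0.14 without the third, and 0.08 over the 4 HFD arrays. The chow SD was the larger in 39 of 43 genes (90.7%) with all arrays and in 35 (81.4%) without the third chow array. Over all genes the shares were 67.8% and 49.8%, and over genes above the upper quartile level 83.2% and 55.3%. The mean level of the 43 genes was 8.85, 8.82, 8.95 and 8.59 on chow 1, 2, 3 and 5, and 8.91 to 8.99 on the HFD arrays. The highest and the lowest of the chow means came from the arrays labelled 3 and 5.

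**Figure D3:**
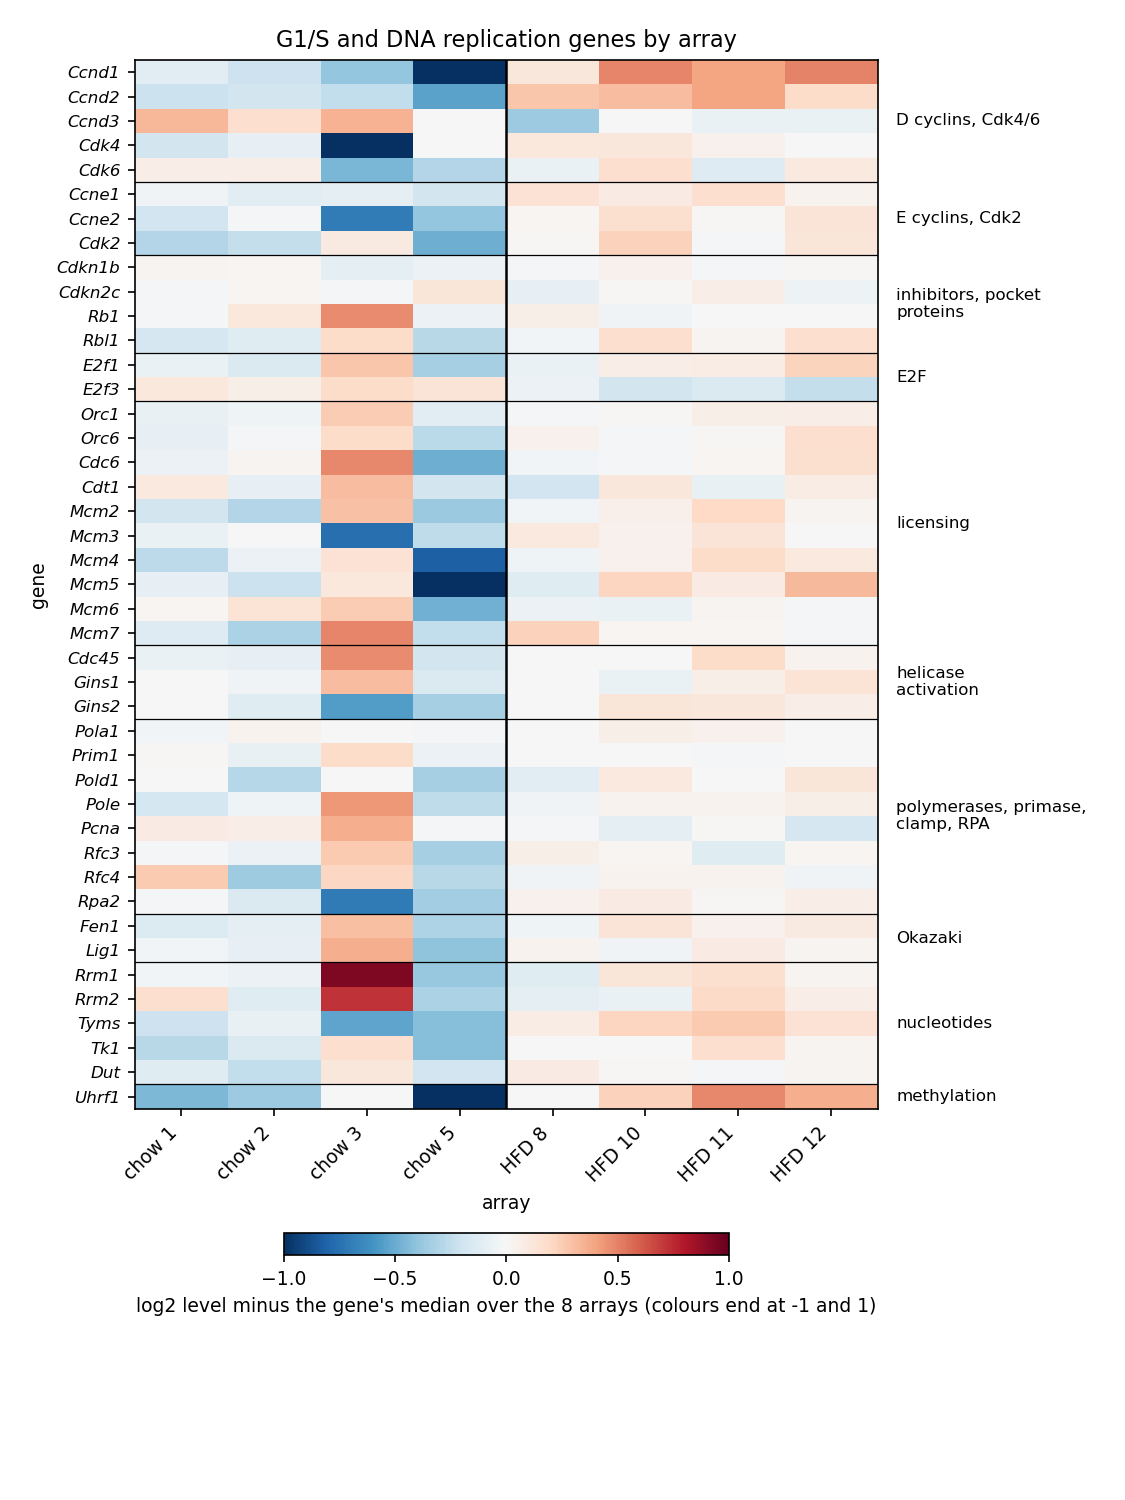
Deviation of each of the 43 genes (rows) on each array (columns) from the gene's own median over the 8 arrays, on the log2 scale given by the colour bar. The third chow column holds the highest level in 23 genes and the fifth chow column the lowest in 25.

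Among the D-type cyclins, the growth factor sensors of the cycle, Ccnd2 rose. Ccnd2 read 9.22, 9.25, 9.19 and 8.90 on chow 1, 2, 3 and 5 and 9.71, 9.74, 9.83 and 9.62 on HFD 8, 10, 11 and 12. Every HFD array lay above every chow array. The means were 9.14 ± 0.16 and 9.72 ± 0.09 (SD, n = 4 each), a difference of 0.58 (SE 0.0832, 95% interval 0.39 to 0.78, adjusted p = 0.00836 in limma), or 1.5-fold. Without chow 3 the difference was 0.60 (adjusted p = 0.00391). A second Ccnd2 probe differed by 0.42 and the 2 remaining ones, near background, by -0.03 and 0.03. With the mean of its probes the difference was 0.25 and the call was lost (adjusted p = 0.0678).

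Ccnd1, the D-type cyclin best known for its induction in dividing hepatocytes, had the largest difference of the 43 with all arrays but did not pass. Its levels were 10.74, 10.65, 10.47 and 9.57 on the chow arrays and 10.97, 11.34, 11.25 and 11.35 on the HFD arrays. All HFD arrays lay above all chow arrays, and chow 5 lay far below the other chow arrays. The difference was 0.87 (SE 0.246, 95% interval 0.30 to 1.44, adjusted p = 0.119 in limma), or 1.83-fold, and 0.91 without chow 3 (adjusted p = 0.0699). Its other probes differed by 0.77 and 0.48. Without chow 5 the difference was smaller, 0.61, and passed (adjusted p = 0.0281), and without chow 3 and chow 5 it was 0.53 (adjusted p = 0.0143). It also passed when only genes above the upper quartile level were tested (adjusted p = 0.0467).

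The third D-type cyclin, Ccnd3, had a negative difference that did not pass, -0.33 (adjusted p = 0.164), and -0.28 without chow 3. Cdk4, a kinase partner of the D-type cyclins, read 10.40, 10.50, 7.91 and 10.58 on the chow arrays and 10.69, 10.70, 10.63 and 10.59 on the HFD arrays. The value on chow 3 lay far below the rest while the other chow arrays lay just under the HFD arrays. The difference was 0.80 with all arrays (SE 0.562, adjusted p = 0.651) and 0.16 without chow 3 (SE 0.0481, adjusted p = 0.0865). Without chow 3 and chow 5 it was 0.20 and passed (adjusted p = 0.0359). A second Cdk4 probe, also above the upper quartile level, differed by -0.03 with all arrays. It read 7.89 to 8.42 on the chow arrays and 8.09 to 8.22 on the HFD arrays. Cdk6, the alternative kinase partner, differed by 0.17 (adjusted p = 0.691), and by 0.07 without chow 3.

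In the next step of the pathway Ccne1, which encodes cyclin E1, rose by a small margin. Ccne1 read 8.47, 8.39, 8.41 and 8.32 on the chow arrays and 8.65, 8.59, 8.67 and 8.54 on the HFD arrays. The groups did not overlap, and the lowest HFD value was 8.54 against a highest chow value of 8.47. The means were 8.40 ± 0.06 and 8.61 ± 0.06 (SD, n = 4 each), a difference of 0.21 (SE 0.0426, 95% interval 0.12 to 0.31, adjusted p = 0.0323 in limma), or 1.16-fold. Without chow 3 it was 0.22 (adjusted p = 0.0231). The call was lost without any 1 of chow 2, chow 5, HFD 8, HFD 10 or HFD 11 (adjusted p 0.0649 to 0.102), among genes above the upper quartile level (0.0905), and with a trended robust prior (0.297), at differences of 0.19 to 0.22. Without both chow 3 and chow 5 it was 0.18 (adjusted p = 0.0598).

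Ccne2, the other E-type cyclin, read 8.00, 8.18, 7.49 and 7.80 on the chow arrays and 8.21, 8.35, 8.20 and 8.32 on the HFD arrays. All HFD values lay above all chow values, with chow 3 lowest. Its difference was 0.40 (adjusted p = 0.191) and 0.28 without chow 3 (adjusted p = 0.0887). Cdk2, the kinase of the E-type cyclins, read 10.01, 10.06, 10.39 and 9.81 on the chow arrays and 10.31, 10.53, 10.29 and 10.42 on the HFD arrays. Only chow 3 reached the HFD range. Its difference was 0.32 with all arrays (adjusted p = 0.252, exact 2-sided permutation p = 0.0857) and 0.43 without chow 3 (SE 0.0761, adjusted p = 0.00974), or 1.34-fold. The mean of its probes differed by 0.27 and passed with all arrays (adjusted p = 0.00775).

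The inhibitors and pocket proteins, which hold the cycle back, gave no call with all arrays. 0 of 4 passed in limma, and 0 at an unadjusted p under 0.05. The kinase inhibitors Cdkn1b (p27) and Cdkn2c (p18) differed by 0.03 and -0.04. Rb1, the retinoblastoma protein, read 8.76, 8.88, 9.25 and 8.72 on the chow arrays and 8.83, 8.74, 8.77 and 8.78 on the HFD arrays, so that apart from chow 3 the ranges overlapped. Its difference was -0.12 (adjusted p = 0.735) and -0.01 without chow 3. Rbl1, the pocket protein p107, read 7.93, 7.97, 8.28 and 7.82 on the chow arrays and 8.07, 8.26, 8.12 and 8.26 on the HFD arrays. Chow 3 was its highest array. The difference was 0.18 (adjusted p = 0.516), and 0.27 without chow 3 (adjusted p = 0.0263). Without chow 3 and chow 5 it was 0.23 and no longer passed (adjusted p = 0.0648). The other Rbl1 probes, near background, differed by -0.01 and -0.04 with all arrays, and the mean of its probes by 0.04.

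E2f3, an activating E2F factor, was the only 1 of the 43 genes that fell. It read 9.84, 9.79, 9.92 and 9.86 on the chow arrays and 9.68, 9.55, 9.59 and 9.50 on the HFD arrays. Every HFD array lay below every chow array, including chow 3 and chow 5. The means were 9.85 ± 0.05 and 9.58 ± 0.08 (SD, n = 4 each), a difference of -0.27 (SE 0.046, 95% interval -0.38 to -0.17, adjusted p = 0.0165 in limma), or 1.21-fold lower. Without chow 3 it was -0.25 (adjusted p = 0.0124). A second, dimmer probe differed by -0.11. The call was lost without any 1 of HFD 10, 11 or 12 (adjusted p 0.0512 to 0.0635), with a trended robust prior (0.150), and with the mean of the probes (difference -0.19, adjusted p = 0.198). E2f1, the other activating factor listed, read 8.69, 8.61, 9.03 and 8.42 on the chow arrays and 8.69, 8.82, 8.83 and 8.98 on the HFD arrays. These ranges overlapped, and the difference was 0.14 (adjusted p = 0.735), or 0.26 without chow 3 (adjusted p = 0.102).

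**Figure D4:**
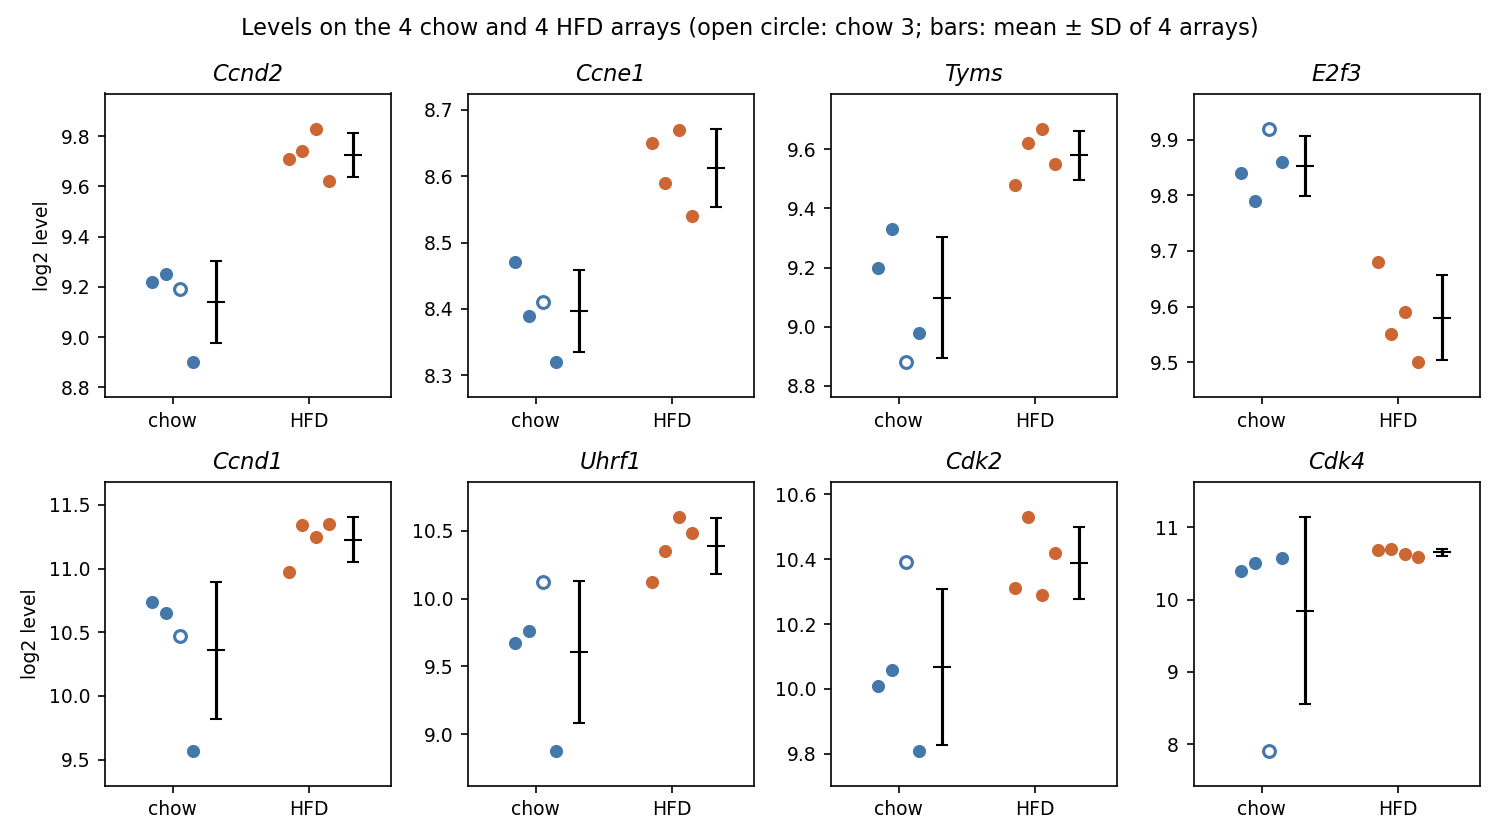
Log2 level on each array (vertical axis) for 8 genes, with the 4 chow arrays at left and the 4 HFD arrays at right in each panel, the third chow array as an open circle, and bars for mean ± SD of 4 arrays. The vertical scale differs between panels. The groups do not overlap in Ccnd2, Ccne1, Tyms, E2f3, Ccnd1 and Cdk4, and the widest chow bar, in Cdk4, goes with the third chow array at 7.91.

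Ahead of the genes for nucleotide supply, the sequences upstream of the 3 called genes with a RefSeq window are shown, each as the 250 bases before a start site in GRCm38.p6 and read along the strand of the gene. Of the stretches shown, only that of E2f3, taken at the first of its 2 listed starts, has an E2F word, given in capitals.
Ccne1, chr7:38107491-38107740, minus strand: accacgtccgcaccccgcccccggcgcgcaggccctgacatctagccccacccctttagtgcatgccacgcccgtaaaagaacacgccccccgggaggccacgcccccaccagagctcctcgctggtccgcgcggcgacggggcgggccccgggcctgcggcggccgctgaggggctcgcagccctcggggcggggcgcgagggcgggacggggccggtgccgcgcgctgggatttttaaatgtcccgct
Tyms, chr5:30073626-30073875, minus strand: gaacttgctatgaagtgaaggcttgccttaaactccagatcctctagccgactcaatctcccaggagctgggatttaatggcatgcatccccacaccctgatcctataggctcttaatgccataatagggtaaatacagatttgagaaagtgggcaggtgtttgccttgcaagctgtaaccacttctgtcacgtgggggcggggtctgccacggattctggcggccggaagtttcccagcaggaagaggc
E2f3, chr13:29986064-29986313, minus strand: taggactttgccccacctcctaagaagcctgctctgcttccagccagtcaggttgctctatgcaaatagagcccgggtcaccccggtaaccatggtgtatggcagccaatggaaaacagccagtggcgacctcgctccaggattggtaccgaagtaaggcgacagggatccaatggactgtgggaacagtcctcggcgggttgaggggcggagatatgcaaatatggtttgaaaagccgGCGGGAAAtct
The stretch of E2f3 also held the letters CCAAT 3 times on either strand, and those of Ccne1 and Tyms 0 times. GC boxes (GGGCGG on either strand) numbered 4 in Ccne1, 1 in Tyms and 1 in E2f3. GC content was 76.0% in Ccne1, 52.0% in Tyms and 55.6% in E2f3. Over the full windows a GC box occurred in 27 of the 35 genes (77.1%, against 38.2% of all genes with a window), CCAAT in 21 (60.0% against 41.1%), and the E-box word CACGTG in 7 (20.0% against 8.1%). Ccnd2, the remaining called gene, is named only.

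Among the 5 genes of nucleotide supply, Tyms, the thymidylate synthase that makes the DNA-specific thymine nucleotide, rose. Tyms read 9.20, 9.33, 8.88 and 8.98 on the chow arrays and 9.48, 9.62, 9.67 and 9.55 on the HFD arrays. Each HFD array was above each chow array. The means were 9.10 ± 0.20 and 9.58 ± 0.09 (SD, n = 4 each), a difference of 0.48 (SE 0.0984, 95% interval 0.25 to 0.71, adjusted p = 0.0359 in limma), or 1.4-fold. Without chow 3 it was 0.41 (adjusted p = 0.0161). A second probe differed by 0.19. The call was lost without any 1 of chow 1, chow 5, HFD 8, HFD 10, HFD 11 or HFD 12 (adjusted p 0.0637 to 0.116), at differences of 0.44 to 0.52.

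Tk1 and Dut passed when chow 3 was left out. Tk1, the salvage thymidine kinase of dividing cells, read 7.63, 7.76, 8.07 and 7.48 on the chow arrays and 7.91, 7.90, 8.07 and 7.93 on the HFD arrays. Chow 3 was as high as the highest HFD array, and the other chow arrays lay below all HFD arrays. The difference was 0.22 (adjusted p = 0.495), and 0.33 without chow 3 (SE 0.0697, adjusted p = 0.0213). Dut, which removes dUTP, read 7.68, 7.56, 7.92 and 7.61 on the chow arrays and 7.89, 7.82, 7.79 and 7.83 on the HFD arrays. Chow 3 was again the highest. The difference was 0.14 (adjusted p = 0.507), and 0.21 without chow 3 (SE 0.0408, adjusted p = 0.0134). Both genes stayed past the test without chow 3 and chow 5. The probe that stood for each lay below the upper quartile level of 7.99. With all arrays the other Tk1 probes differed by -0.00 to 0.03, and the second Dut probe by 0.08. With the mean of probes the difference was 0.07 in Tk1 and 0.11 in Dut.

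The ribonucleotide reductase subunits did not pass in either fit. Rrm1, the large subunit, read 8.75, 8.72, 9.71 and 8.40 on the chow arrays and 8.66, 8.90, 8.94 and 8.81 on the HFD arrays, with chow 3 well above all others. Its difference was -0.07 with all arrays (adjusted p = 0.957) and 0.20 without chow 3 (adjusted p = 0.316). Rrm2, the small subunit, differed by -0.09 and, without chow 3, by 0.11. Chow 3 exceeded the mean of the other 7 arrays by 0.96 in Rrm1 and 0.75 in Rrm2. The sign of both differences turned when that array was left out.

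Of the 10 origin licensing genes, 0 passed with all arrays in limma and 0 had an unadjusted p under 0.05. Their differences ran from -0.05 to 0.42 with a median of 0.11. Without chow 3, Mcm2 and Mcm7 rose, all 10 differences were positive (0.04 to 0.55, median 0.19), and 7 had an unadjusted p under 0.05. In that fit 4050 of all 20289 genes and 3026 of the 7153 above the upper quartile level had such a p. The shares with a positive difference were 52.8% and 54.5%. The 2 calls are 20.0% of the list, against 9.17% of all genes called and 21.6% of those above that level. The third chow array was the highest of the 8 in 7 of the 10 genes, and the fifth was the lowest in 7.

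Mcm2, a subunit of the Mcm ring, read 9.09, 8.98, 9.56 and 8.90 on the chow arrays and 9.24, 9.32, 9.47 and 9.30 on the HFD arrays. Chow 3 was above every HFD array and the other chow arrays below every HFD array. The difference was 0.20 (adjusted p = 0.647), and 0.34 without chow 3 (SE 0.0624, adjusted p = 0.0109). Mcm7, another subunit, read 8.83, 8.64, 9.45 and 8.71 on the chow arrays and 9.19, 8.98, 8.98 and 8.94 on the HFD arrays, with the same placing of chow 3. Its difference was 0.11 (adjusted p = 0.875), and 0.29 without chow 3 (SE 0.0688, adjusted p = 0.0326). Without chow 3 and chow 5, Mcm2 still passed (0.30, adjusted p = 0.0271) and Mcm7 did not (0.29, adjusted p = 0.0702).

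The other Mcm subunits did not pass in either fit. Mcm4 read 11.08, 11.29, 11.49 and 10.53 on the chow arrays and 11.30, 11.39, 11.53 and 11.44 on the HFD arrays. Chow 5 lay well below the rest. Its difference was 0.32 (adjusted p = 0.547), 0.45 without chow 3 (adjusted p = 0.136), and 0.23 without chow 3 and chow 5. Mcm5 read 10.17, 10.04, 10.36 and 9.26 on the chow arrays and 10.13, 10.47, 10.34 and 10.58 on the HFD arrays, with chow 5 again far below the rest, and a difference of 0.42 (adjusted p = 0.502). Without chow 3 and chow 5 that difference was 0.27. Mcm3 differed by 0.33 (adjusted p = 0.397), with its lowest value, 7.54, on chow 3, and by 0.17 without that array. Mcm6 differed by -0.01, and by 0.08 without chow 3. Among the loading factors, Orc1 and Orc6 of the origin recognition complex differed by 0.02 and 0.10, and by 0.10 and 0.18 without chow 3. Cdc6 and Cdt1, which place the ring, differed by 0.04 and -0.05, and by 0.21 and 0.04 without chow 3.

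Probes of the same gene read chow 3 in opposite ways in several of these genes. Of 11 genes with more than 1 probe above the upper quartile level, chow 3 was the highest array on a probe and the lowest on another in 3 (27.3%): Cdk4, Mcm6 and Mcm7. Over all genes with such probes this held for 536 of 2245 (23.9%) with chow 3, and for 0.668% to 1.51% with each of the other arrays. In Cdk4 the brighter probe read 7.91 on chow 3, its lowest value, and the second probe 8.42, its highest. In Mcm6 the brighter probes read 10.68 and 11.07 on chow 3, the highest of 8 arrays, and the third probe 8.95, the lowest. The second probe of Mcm7 read 7.66 on chow 3, its lowest value. A cause of these opposite readings was not tested.

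**Figure D5:**
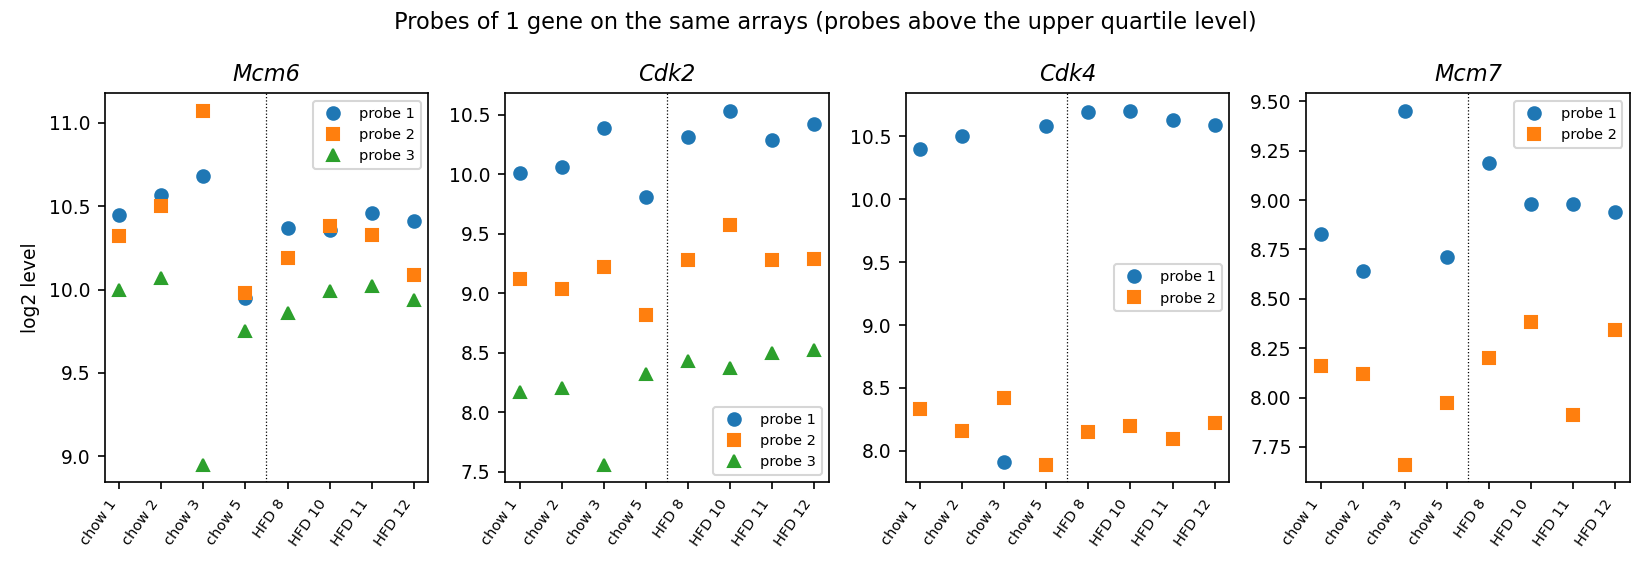
Log2 level on each array (horizontal axis, chow left and HFD right of the dotted line) for the probes above the upper quartile level of 4 genes, with a marker per probe. On the third chow array the probes of Mcm6, Cdk4 and Mcm7 read in opposite directions from their levels on the other arrays, with 2 probes of Mcm6 at their highest and the third at its lowest, and the probes of Cdk4 crossing at 7.91 and 8.42.

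The helicase activators gave 0 calls of 3 genes in limma, with 1 at an unadjusted p under 0.05. Such a p was found in 2852 of all 20289 genes and 2052 of the 7153 above the upper quartile level. Gins2, a GINS subunit, read 8.52, 8.40, 7.96 and 8.19 on the chow arrays and 8.52, 8.64, 8.63 and 8.59 on the HFD arrays. The lowest HFD value and the highest chow value both rounded to 8.52, and chow 3 was the lowest array. The difference was 0.33 (adjusted p = 0.200), and 0.23 without chow 3 (adjusted p = 0.103). Cdc45 and Gins1 differed by 0.02 and 0.00 with all arrays, and by 0.17 and 0.10 without chow 3.

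Among the polymerases and their partners, 0 of 8 genes passed in either fit, and 2 had an unadjusted p under 0.05 with all arrays in limma. Such a p was found in 2852 of all 20289 genes and 2052 of the 7153 above the upper quartile level. Differences of the 8 genes ran from -0.19 to 0.35, with a median of 0.03. Pold1, the catalytic subunit of the lagging-strand polymerase delta, read 9.90, 9.62, 9.91 and 9.57 on the chow arrays and 9.80, 10.00, 9.91 and 10.03 on the HFD arrays. The ranges overlapped, with a difference of 0.18 (adjusted p = 0.471), or 0.23 without chow 3 (adjusted p = 0.161). Pcna, the sliding clamp widely used as a proliferation marker, had a difference of -0.19 (adjusted p = 0.333), and of -0.12 without chow 3. The clamp loader subunits Rfc3 and Rfc4 differed by 0.03 and 0.04, the primase subunit Prim1 by -0.02, and the catalytic subunits Pola1 and Pole by 0.03 each. Without chow 3 the differences were 0.13 for Rfc3 and Rfc4, 0.04 for Prim1, 0.03 for Pola1 and 0.18 for Pole. Rpa2, of the single-strand binding complex, differed by 0.35 (adjusted p = 0.266), with its lowest value, 7.49, on chow 3, and by 0.22 without that array.

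Fen1 and Lig1 trim and join the fragments of the lagging strand. Fen1 read 10.04, 10.08, 10.48 and 9.87 on the chow arrays and 10.14, 10.31, 10.22 and 10.27 on the HFD arrays. Only chow 3 exceeded the lowest HFD array. The difference was 0.12 (adjusted p = 0.772), and 0.24 without chow 3 (SE 0.0609, adjusted p = 0.0446), but 0.18 without chow 3 and chow 5 (adjusted p = 0.0863). Lig1 read 8.66, 8.60, 9.05 and 8.28 on the chow arrays and 8.72, 8.65, 8.77 and 8.71 on the HFD arrays, which overlapped. Its difference was 0.06 (adjusted p = 0.922), or 0.20 without chow 3 (adjusted p = 0.228).

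Uhrf1, which recognises hemimethylated DNA behind the fork and recruits the maintenance methyltransferase, had one of the larger differences. It read 9.67, 9.76, 10.12 and 8.88 on the chow arrays and 10.12, 10.35, 10.60 and 10.48 on the HFD arrays. Chow 3 and HFD 8 read the same to 2 decimals, and chow 5 was far below the rest. The difference was 0.78 with all arrays (SE 0.245, adjusted p = 0.166, exact 2-sided permutation p = 0.0571). Without chow 3 it was 0.95 (SE 0.205, adjusted p = 0.0233), or 1.93-fold, and without chow 3 and chow 5 it was 0.67 (adjusted p = 0.00901). A second Uhrf1 probe, near background, differed by -0.02 with all arrays. With the mean of its probes the difference was 0.38 with all arrays (adjusted p = 0.183 in limma).

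Separation of the groups was read gene by gene. With all arrays the 4 HFD values lay above all chow values in 8 of the 43 genes (18.6%): Ccnd1, Ccnd2, Cdk4, Ccne1, Ccne2, Gins2, Rpa2 and Tyms. The background was 4.24% of all genes. The HFD values lay below all chow values in 1 gene, E2f3 (2.33%), against 6.47% of all genes. Each of these 9 genes has an exact 2-sided permutation p of 0.0286, the smallest that 4 against 4 arrays can give. Without chow 3, 21 genes (48.8%) lay higher, against 9.86% of all genes, and 1 (2.33%) lower, against 8.11%. These shares were not counted over genes above the upper quartile level, where 33 of the 43 lie. Chow 5, which stays in both counts, was the lowest of the 8 arrays in 25 of the 43 genes (58.1%).

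Other genes of the same pathway were called about as often as all genes with all arrays, 3.85% and 4.0% in the lists below against 4.04%. Of 26 other G1/S regulators with a probe, 1 rose with all arrays: Cdkn2b (p15), an inhibitor of Cdk4 and Cdk6, by 0.52 (adjusted p = 0.003). Without chow 3, 3 rose and 1 fell (15.4%). Their median difference was 0.02. Of 50 other replication factors with a probe, 2 rose and 0 fell: Dtymk, which phosphorylates thymidine monophosphate, by 0.90 (adjusted p = 0.0473), and Tk2, the mitochondrial thymidine kinase, by 0.26 (adjusted p = 0.0497). Their median difference was 0.06. Without chow 3, 11 of the 50 rose and 1 fell (24.0%), against 9.17% of all genes and 21.6% of genes above the upper quartile level. The fifth chow array was the lowest in 21 of the 50 (42.0%) and in 7 of the 26 other regulators (26.9%).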

How the data were processed

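Levels are log2 values as the authors deposited them, from 8 single-colour Illumina arrays, with 45281 probes and 1 column for each array. Processing was with lumi, per the submitters' processing notes; the sources used here give neither its version nor its steps. Sorted values of each array differed from their mean over arrays by at most 0.0026, so the columns shared 1 distribution and were not normalized again. Such processing removes a shift common to all genes of an array. Whether the scale is plain or variance-stabilised log2 is unknown. For arrays the number of arrays limits the precision.

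A single gene symbol was found for 35784 probes, several for 0 and none for 9497, through the platform annotation updated with a mouse gene table of GRCm38.p6. HFD and chow were compared over all 20289 genes with limma 3.58.1 under R 4.3.3 (lmFit and eBayes, 2-sided), with Benjamini-Hochberg adjusted p-values and a threshold of 0.05. Folds are powers of 2 of log2 differences. Single values were also tested by exact permutation over the 70 assignments of arrays. Alternatives were a repeated quantile normalization, filters at the median and upper quartile level, the mean of a gene's probes, array weights, a trended robust prior, and leaving out arrays. The genes and lists were chosen with earlier results of these data known. Full values were given for genes past the threshold in either fit and for the highest-reading other gene of each role group; those of Cdk4 and Mcm5 were added after their values were seen. For genes of other lists, up to 3 past the threshold with the largest differences were named. Promoters were RefSeq windows of GRCm38.p6. Figures were drawn with matplotlib 3.10.9.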

Additional observations from a re-analysis of the deposited data

Results flagged for a closer look

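In 3 of 86 groups of 4 arrays tested (3.49%), a single array lay far from the rest of its group; chance flags about 1 in 20 groups. Cdk4 read 7.91 on chow 3, against 10.40 to 10.58 on the other chow arrays. Orc1 read 7.81 on chow 3, against 7.45 to 7.51. Tk1 read 8.07 on HFD 11, against 7.90 to 7.93 on the other HFD arrays.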

How the results depend on the processing

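No paired analysis was possible because the chow numbers (1, 2, 3 and 5) and the HFD numbers (8, 10, 11 and 12) share none. The count of all genes past the threshold was 820 with all arrays, 1603 with array weights, 1955 without both chow 3 and chow 5, and 447 to 1861 when 1 array was left out. The split of higher and lower calls was 299 and 521 (36.5% higher) with all arrays, 981 and 880 without chow 3 (52.7%), 771 and 832 with array weights (48.1%), and 1008 and 947 without chow 3 and chow 5 (51.6%). Of the 43 genes, 4 passed with all arrays, 7 with array weights, 2 with a trended robust prior, 10 without chow 3 and chow 5, and 1 to 12 when 1 array was left out. Their median difference ranged from 0.04 to 0.20 when 1 array was left out. Signs turned only in differences that did not pass. With the mean of probes Cdkn2c came to 0.00, Mcm6 to 0.02 and Rfc4 to -0.03. With array weights Cdt1 came to 0.02, Prim1 to 0.03, Rrm1 to 0.12 and Rrm2 to 0.05. Without chow 3 and chow 5, Cdk6 came to -0.05, Cdkn1b to -0.02, Prim1 to 0.03, Rrm1 to 0.09 and Rrm2 to 0.00. When 1 array was left out, differences that changed sign ran from -0.02 to 0.10 (Orc1), -0.12 to 0.21 (Cdc6), -0.12 to 0.04 (Cdt1), -0.17 to 0.08 (Mcm6), -0.06 to 0.17 (Cdc45), -0.05 to 0.10 (Gins1), -0.05 to 0.04 (Prim1), -0.05 to 0.18 (Pole), -0.07 to 0.13 (Rfc3), -0.06 to 0.14 (Rfc4), -0.06 to 0.20 (Lig1), -0.23 to 0.20 (Rrm1) and -0.23 to 0.11 (Rrm2). The cause was not tested. Dim probes, near the median level, limit what can be seen.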

Other observations

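Of 23 mitosis genes with a probe, 1 rose with all arrays, Top2a, the topoisomerase that untangles sister chromatids, by 0.33 (SE 0.0419, adjusted p = 0.00482 in limma, 4 against 4 arrays). That is 4.35% of the list, against 4.04% of all genes called. Without chow 3, Prc1, of the spindle midzone, also rose, by 0.63 (adjusted p = 0.0455), making 8.7% of the list against 9.17% of all genes. The median difference of the mitosis genes was 0.06 with all arrays and 0.14 without chow 3, and chow 5 was the lowest array in 14 of the 23 (60.9%). Of 14 EGF receptor and immediate early genes with a probe, the MAP kinase phosphatases Dusp6 and Dusp4 passed in opposite directions. Dusp6 rose by 0.52 (adjusted p = 0.0329) and Dusp4 fell by 0.76 on the log2 scale (adjusted p = 0.00621). Levels of Dusp4 were 10.17 to 10.61 on the chow arrays and 9.43 to 9.66 on the HFD arrays, and those of Dusp6 were 10.17 to 10.59 on the chow arrays and at least 10.69 on each HFD array.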
